A study of Mus musculus with 4 samples.

Results

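The genes described here are the D-type cyclins (Ccnd1, Ccnd2 and Ccnd3), their kinases CDK4 and CDK6 (Cdk4 and Cdk6) and the CDK inhibitors Cdkn1a, Cdkn1b, Cdkn1c, Cdkn2a and Cdkn2c. They were picked by symbol, and all 10 had a usable row in both deposited gene tables of 35604 rows. RNA-seq was made from ESC-FC1801, Schwann cells of FVB/N mouse embryos with the genotype Nf2Flox/Flox, in which Nf2 was deleted in culture with Ad-Cre (NF2-/-). The 4 libraries stand for 4 groups of 1 library each. In culture, cells received 1 µM NXD30001, a compound the series names as an HSP90 inhibitor, or DMSO, for 24 h. Tumours grown from the same line in mice came from animals given NXD30001 at 100 mg/kg, 3 times a week for 4 weeks, or vehicle on the same schedule. The treated and the control cells therefore all lacked Nf2, and no line with an intact Nf2 gene served as a control. One label field calls all 4 samples cultured cells, and the titles and treatments, which set 2 of them in vivo, were followed here. The culture medium was serum-free with neuregulin and forskolin, and the tumours also held host cells. How many animals went into a tumour library and when tumours were taken after the last dose are not given in the sources used here.

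D-type cyclins bind CDK4 or CDK6 in response to growth signals, and the active pair phosphorylates the retinoblastoma protein, which frees E2F factors to switch on the genes of S phase. INK4 inhibitors, here p16 (from Cdkn2a) and p18 (Cdkn2c), bind the kinases themselves, while the CIP/KIP inhibitors p21 (Cdkn1a), p27 (Cdkn1b) and p57 (Cdkn1c) bind cyclin and kinase together and above all block CDK2. CDK4 is folded with HSP90 and the kinase co-chaperone CDC37, so that RNA levels and protein levels of this kinase need not move together. Cyclin D1 is a classic output of ERK signalling, and merlin, the Nf2 product, is known to restrain cyclin D1 expression. The data below are RNA only.

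Upstream sequence is shown for the kinase pair, whose order of level differed between the culture libraries, and for Cdkn2a, whose locus makes distinct products from separate starts. RefSeq promoters (GRCm38.p6) were matched for 7 of the 10 genes, with 11 starts in all, and the 250 bases before a start are printed 5′ to 3′ on the gene's strand. Capitals mark matches to the motifs searched on both strands, namely CACGTG (the E-box), GGGCGG (the GC box), TTTGAA (the cell cycle homology region), TGAGTCA (AP-1), TGACGT (the core of the cyclic AMP element), TTGGCGC and TTCGCGC (E2F), TATAAA (the TATA box) and GAA and TTC separated by any 2 bases (heat shock repeat). The Cdk6 window is chr5:3343643-3343892 (plus strand), the Cdk4 window chr10:127063285-127063534 (plus strand), and those of Cdkn2a are chr4:89294620-89294869 and chr4:89282193-89282442 (minus strand), all in GRCm38.p6.
Cdk6: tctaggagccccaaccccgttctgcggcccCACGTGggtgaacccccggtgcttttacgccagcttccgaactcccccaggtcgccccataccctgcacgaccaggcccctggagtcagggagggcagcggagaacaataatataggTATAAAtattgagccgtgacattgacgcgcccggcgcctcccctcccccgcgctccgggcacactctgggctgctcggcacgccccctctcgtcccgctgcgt
Cdk4: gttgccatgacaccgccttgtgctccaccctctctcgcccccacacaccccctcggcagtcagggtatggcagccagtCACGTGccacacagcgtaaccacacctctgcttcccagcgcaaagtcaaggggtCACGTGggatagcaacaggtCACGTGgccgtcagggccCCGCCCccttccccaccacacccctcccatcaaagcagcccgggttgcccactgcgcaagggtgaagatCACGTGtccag
Cdkn2a, upstream start (the p19ARF transcript): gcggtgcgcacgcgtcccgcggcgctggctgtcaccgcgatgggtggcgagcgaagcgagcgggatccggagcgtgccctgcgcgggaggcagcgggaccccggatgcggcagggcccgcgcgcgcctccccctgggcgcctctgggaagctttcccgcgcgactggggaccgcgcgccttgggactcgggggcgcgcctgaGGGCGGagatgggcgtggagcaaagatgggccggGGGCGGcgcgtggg
Cdkn2a, downstream start (the p16 transcript): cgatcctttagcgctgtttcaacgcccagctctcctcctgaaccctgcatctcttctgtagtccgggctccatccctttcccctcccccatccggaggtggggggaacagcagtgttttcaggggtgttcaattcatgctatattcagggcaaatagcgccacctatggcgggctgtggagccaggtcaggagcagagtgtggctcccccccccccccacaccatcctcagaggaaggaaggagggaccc
The Cdk4 window held 4 E-boxes, the palindrome bound by MYC and related factors, and the Cdk6 window held 1 E-box and a TATA box. Among 32851 promoter windows of the same length, 6.02% held an E-box at all and 7 windows (0.0213%) held at least 4. The upstream Cdkn2a window held GC boxes, as did 32.7% of all windows, and the downstream one held none of the motifs. GC content was 78.4% in the upstream Cdkn2a window and 60.0% in the downstream one. A match is a run of letters and not a bound site.

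Levels are FPKM, fragments per kilobase of transcript and of mapped fragments, which can be compared between genes of a library. A difference is log2(FPKM + 1) of the treated library minus that of the untreated one, and a ratio is treated over untreated FPKM with no pseudocount. Genes with at least 1 FPKM in either library were compared. With 1 library per group there is no replicate error and no test. In its place stands an implied error, the log ratio in the authors' deposited table divided by the statistic given there, which rests on the authors' model and covers no spread between cultures or animals. Its 95% range is given after a ratio. For genes between 30 and 100 FPKM the median implied error was 0.69 (log2) in culture and 0.30 in tumours. Fragments of the treated library were 1.05 times those of the DMSO library in culture and 1.19 times those of the vehicle library in tumours, judged from the lowest genes. The median difference of all 12676 genes compared in culture was -0.25, and that of 15550 genes in tumours -0.03, so culture differences are also given relative to that shift where they matter. No member changed sign when the median was subtracted.

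Schwann cell markers were used to check the labelled cell type. Sox10, the glial lineage factor, was at 4.40 FPKM in treated and 8.42 FPKM in DMSO culture, and at 139.8 FPKM in the treated and 47.0 FPKM in the vehicle tumour. Pmp22, a myelin protein gene, was at 2777 FPKM in treated and 669.9 FPKM in DMSO culture, and Mbp, another one at a shared locus, at 88.1 FPKM in treated and 12.1 FPKM in DMSO culture. Of 7 Schwann cell markers compared in culture, Pmp22 and Mbp were at least 2-fold higher with NXD30001 and 3 were at least 2-fold lower. S100b, a usual Schwann cell marker, was below 1 FPKM in all 4 libraries. Endothelial, macrophage, T cell, pericyte, red cell, mast cell, epithelial and skeletal muscle lists summed to at most 2.44 FPKM each in culture. The fibroblast list, by contrast, summed to 898 FPKM in treated and 1002 FPKM in DMSO culture. Of its genes only Col1a1, Col3a1 and Pdgfra reached 1 FPKM there.

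In culture, treated cells held less RNA of Ccnd1 and of Cdk6 than DMSO cells, while the inhibitors among the members stayed within 2-fold. Of the 9 members compared, 2 (Ccnd1 and Cdk6) were at least 2-fold lower, against 24.8% of all genes compared, so the count by itself is that of the background. None was 2-fold higher, against a background of 12.6%. The authors' deposited table called 1 member lower, Ccnd1, with a background of 7.14% of genes called lower, and no member higher, with a background of 2.75%. The median difference of the 9 members was -0.55, beside -0.25 for all genes.

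**Figure D1:**
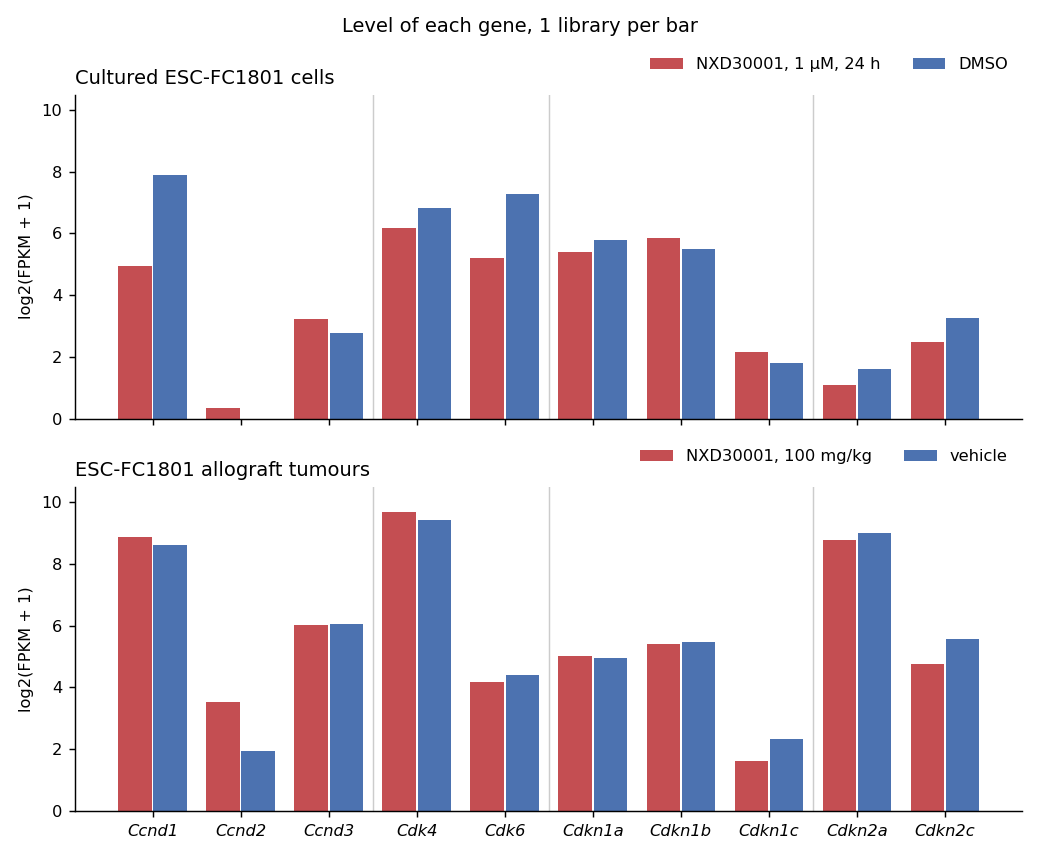
Level of each of the 10 genes on the log2(FPKM + 1) scale, with NXD30001 in red and DMSO or vehicle in blue, 1 library per bar, for culture (top) and tumours (bottom). Ccnd1 and Cdk6 differ between the culture libraries, and Cdkn2a is among the lowest genes in culture and among the highest in tumours.

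Ccnd1, cyclin D1 (ENSMUSG00000070348), was at 29.7 FPKM in NXD30001-treated cells, against 235 FPKM in DMSO cells. The level was 7.91-fold lower with NXD30001, a ratio of 0.126 (0.0473 to 0.338), and the difference was -2.94, or -2.69 relative to the median gene. Only 3.38% of compared genes had a lower difference. The authors' deposited table gives it a q of 0.00195. Its locus in the tables (mm9, chromosome 7 from 152101005 to 152125774) is shared with Oraov1, which was at 5.96 FPKM with NXD30001 and 3.11 FPKM with DMSO and so was higher with NXD30001, at a far lower level than Ccnd1.

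The remaining D cyclins were minor in culture. Ccnd3, cyclin D3 (ENSMUSG00000034165, chromosome 17 from 47730491 to 47736632), was at 8.36 FPKM in treated and 5.86 FPKM in DMSO cells, a ratio of 1.43 (0.408 to 4.996), which the implied error does not tell apart from 1. Ccnd2, cyclin D2, was at 0.273 FPKM in treated cells and listed at 0 in DMSO cells, below the minimum level, and is not compared there. Ccnd1 made up 77.5% of the summed D cyclin level with NXD30001 and 97.6% with DMSO. Ccnd3 made up 21.8% with NXD30001 and 2.44% with DMSO. The summed level was 38.3 FPKM in treated and 240.5 FPKM in DMSO cells, 6.28 times as high in DMSO.

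By FPKM, Cdk6 was above Cdk4 in DMSO cells and below it in treated cells. The implied error covers ratios between libraries, so this order of genes within a library carries no error here. Cdk6 was at 36.1 FPKM with NXD30001, against 155 FPKM with DMSO, a ratio of 0.233 (0.0872 to 0.624) and a difference of -2.07. The authors' deposited table gives Cdk6 (ENSMUSG00000040274, mm9 chromosome 5 from 3344312 to 3522225) a q of 0.0816 and no call. Cdk4 (ENSMUSG00000006728, chromosome 10 from 126500590 to 126507320) was at 72.2 FPKM with NXD30001 and 112 FPKM with DMSO, a ratio of 0.642 (0.367 to 1.12) that reaches 1. The Cdk6 to Cdk4 ratio was 0.4997 in treated and 1.38 in DMSO cells. Cdk4 shares its locus with Tspan31, which was level at 30.6 FPKM in treated and 31.1 FPKM in DMSO cells.

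The CIP/KIP inhibitors as a class were level in culture, with a sum of 101.9 FPKM in treated and 100.7 FPKM in DMSO cells. Cdkn1a, p21 (ENSMUSG00000023067, chromosome 17 from 29227924 to 29237667), was at 41.5 FPKM with NXD30001 and 53.9 FPKM with DMSO, a ratio of 0.770 (0.331 to 1.79). Cdkn1b, p27 (ENSMUSG00000003031, chromosome 6 from 134870419 to 134875531), was at 56.9 and 44.3 FPKM in treated and DMSO cells, a ratio of 1.29 (0.504 to 3.28). Cdkn1c, p57 (ENSMUSG00000037664, chromosome 7 from 150644255 to 150646901), was at 3.50 and 2.52 FPKM in treated and DMSO cells, a ratio of 1.39 (0.350 to 5.53). The range of each of these ratios holds 1, and at this error changes up to those bounds could not be seen. By share, Cdkn1b held 55.8% of the class in treated and 44.0% in DMSO cells.

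Both INK4 members were low in the culture libraries. Cdkn2a was at 1.11 FPKM with NXD30001 and 2.09 FPKM with DMSO, a ratio of 0.533 (0.166 to 1.71), and Cdkn2c, p18 (ENSMUSG00000028551, chromosome 4 from 109333481 to 109339794), at 4.62 and 8.59 FPKM in treated and DMSO cells, a ratio of 0.538 (0.142 to 2.03). The values of both genes were lower with NXD30001 by nearly the same factor, within an error that allows either direction. Since the CIP/KIP sum did not move with the D cyclin sum, D cyclin RNA per CIP/KIP RNA was 0.376 in treated and 2.39 in DMSO cells. This quotient is taken within a library and does not depend on scaling between libraries.

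**Figure D2:**
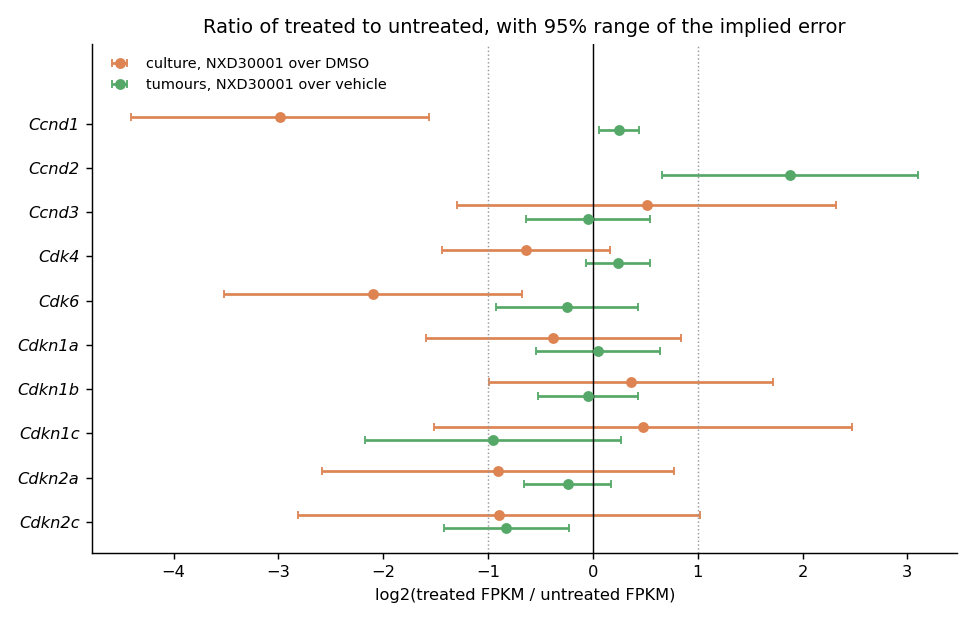
Ratio of treated to untreated FPKM (log2) for each gene in culture (orange, NXD30001 over DMSO) and tumours (green, NXD30001 over vehicle), with bars for the 95% range of the implied error and dotted lines at 2-fold. In culture the bars of Ccnd1 and Cdk6 lie wholly below 0, and Ccnd2 has no culture value because it was listed at 0 with DMSO.

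Between tumours, Ccnd2 was the only member past 2-fold, and Cdkn2c and Cdkn1c had lower values in the treated one. Of the 10 members, all compared, 1 (Ccnd2) was at least 2-fold higher with NXD30001, against 7.32% of all genes, and none was 2-fold lower, against 6.93%. The authors' deposited table called no member, with backgrounds of 3.14% of genes called higher and 2.45% called lower. The median difference of the members was -0.05, beside -0.03 for all genes.

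Ccnd2 (ENSMUSG00000000184, mm9 chromosome 6 from 127080253 to 127162429) was at 10.6 FPKM in the treated tumour, against 2.87 FPKM in the vehicle tumour. Its ratio was 3.68 (1.58 to 8.58), its difference 1.58, and 96.8% of compared genes had a lower difference. The authors' deposited table gives it a q of 0.0799 and no call. Markers of cell types differed between the same tumours, and these values go with every tumour result. Of 8 Schwann cell markers (Sox10, S100b, Mbp, Erbb3, Ngfr, Foxd3, Cdh19 and Pmp22), 7 were compared and all 7 were at least 2-fold higher in the treated tumour, with a summed level of 626 FPKM with NXD30001 and 219.5 FPKM with vehicle. S100b was under the minimum level. All 8 endothelial markers were lower (37.2 FPKM in sum with NXD30001, 91.7 FPKM with vehicle), and so were all 8 macrophage markers (635 and 870.0 FPKM in treated and vehicle tumours). The mast cell list summed to 33.4 FPKM with NXD30001 and 6.85 FPKM with vehicle, and the fibroblast list, with 5 of 6 genes lower, to 2506 FPKM with NXD30001 and 3223 FPKM with vehicle. The pericyte and smooth muscle list summed to 197 FPKM with NXD30001 and 93.7 FPKM with vehicle, nearly all of it Acta2. In the red cell list the globin genes were lower (Hba-a1 at 0 with NXD30001 and 110.0 FPKM with vehicle) and Alas2, of haem synthesis, was higher at 4.72 FPKM with NXD30001 and 0.610 FPKM with vehicle. Of the epithelial list Krt8 alone was above the minimum, at 61.1 FPKM with NXD30001 and 374 FPKM with vehicle, with Epcam and Krt14 at 0 in both tumours. Their part in the Ccnd2 value was not tested. In a tumour piece, fewer cells of a type and less RNA per cell cannot be told apart.

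Ccnd1 was the main D cyclin of the tumours as well, at 466 FPKM with NXD30001 and 392 FPKM with vehicle. Its ratio of 1.19 (1.04 to 1.35) carries an implied error of 0.10, below the median of 0.30 for tumour genes between 300 and 1000 FPKM, and the authors' deposited table gives a q of 0.215. Ccnd3 was at 63.3 and 65.4 FPKM in the treated and vehicle tumours, a ratio of 0.969 (0.642 to 1.46). Ccnd1 held 86.3% of the D cyclin sum with NXD30001 and 85.2% with vehicle.

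Cdk4 was at 813 FPKM in the treated tumour and 688 FPKM in the vehicle tumour, a ratio of 1.18 (0.954 to 1.46), above 99.0% and 98.7% of the genes compared in those libraries. Cdk6 was at 17.0 and 20.3 FPKM in treated and vehicle tumours, a ratio of 0.841 (0.526 to 1.34). Cdk4 was at 47.7 times the level of Cdk6 with NXD30001 and 34.0 times with vehicle.

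The CIP/KIP class was level between tumours, with sums of 75.1 FPKM with NXD30001 and 77.4 FPKM with vehicle. Cdkn1a was at 31.2 and 30.3 FPKM and Cdkn1b at 41.7 and 43.1 FPKM in the treated and vehicle tumours, with ratios of 1.03 (0.685 to 1.55) and 0.968 (0.696 to 1.35). Cdkn1c was near the floor at 2.09 and 4.05 FPKM in treated and vehicle tumours, a ratio of 0.517 (0.221 to 1.21). For Cdkn1a and Cdkn1b these ranges leave out changes of 2-fold in either direction.

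Cdkn2c was lower in the treated tumour, at 26.3 FPKM against 46.7 FPKM with vehicle, a ratio of 0.564 (0.373 to 0.852). It stayed inside 2-fold (difference -0.80), and the authors' deposited table gives a q of 0.163. Cdkn2c and Ccnd1 were, besides Ccnd2, the only members whose 95% range between tumours leaves out a ratio of 1. The share of all genes whose range leaves out 1 was not computed, and the authors' deposited table called no member between tumours. Cdkn2a (ENSMUSG00000044303) was at 432 FPKM with NXD30001 and 512 FPKM with vehicle, a ratio of 0.845 (0.633 to 1.13). The table gives a level for the whole Cdkn2a locus (mm9 chromosome 4 from 88920377 to 88940557), so the share of the p16 and p19ARF starts printed above cannot be read from it.

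**Figure D3:**
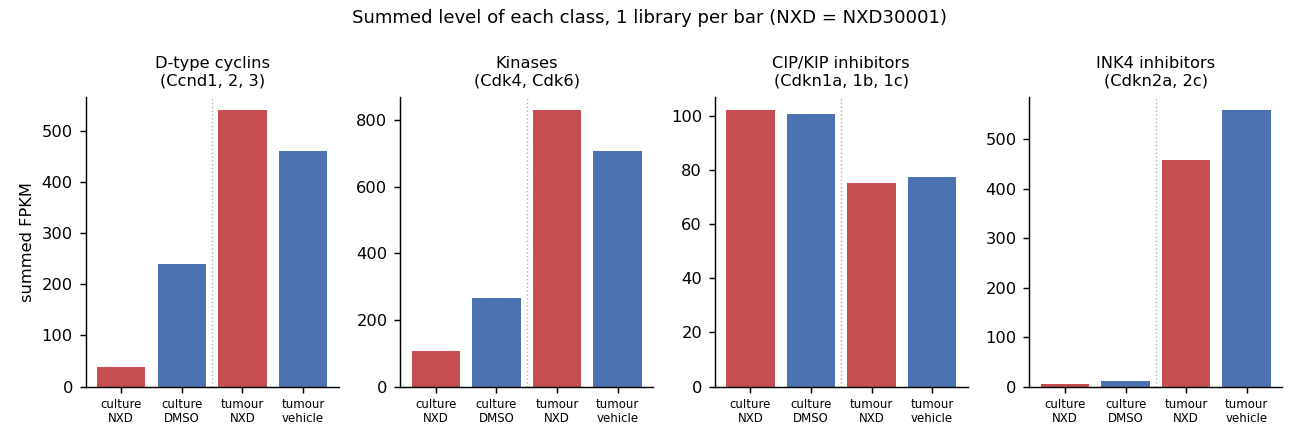
Summed FPKM of the D-type cyclins, the kinases, the CIP/KIP inhibitors and the INK4 inhibitors (Cdkn2a and Cdkn2c) in each of the 4 libraries. NXD30001 is in red and DMSO or vehicle in blue. The D cyclin sum is 38.3 FPKM in treated and 240.5 FPKM in DMSO culture, while the CIP/KIP sums of the same libraries are 101.9 and 100.7 FPKM.

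Set across the tables, which were normalized separately and cannot be tested against each other, Cdkn2a had the most unlike level of all members. It was at 512 FPKM in the vehicle tumour and 2.09 FPKM in DMSO culture, 245 times as high, and 389 times as high in the treated tumour as in the treated culture. By rank, it lay above 98.1% of compared genes in the vehicle tumour and above 17.1% in DMSO culture. Cdk6 went the other way, at 20.3 FPKM in the vehicle tumour and 155 FPKM in DMSO culture. Cdkn1b was at 43.1 and 44.3 FPKM in the same libraries. Macrophage and endothelial markers, near 0 in culture, were present in both tumours, and their part in the Cdkn2a level was not tested. D cyclin RNA per RNA of the INK4 members Cdkn2a and Cdkn2c was 1.18 in the treated and 0.824 in the vehicle tumour. The quotient was 6.69 and 22.5 in treated and DMSO culture. Cdkn2b and Cdkn2d, also of the INK4 family, are not in this sum. In culture the sum was 5.73 and 10.7 FPKM in treated and DMSO cells, beside 7.95 and 12.5 FPKM for Cdkn2b alone. In tumours Cdkn2a, whose p19ARF share cannot be read, made up 94.3% of the sum with NXD30001 and 91.6% with vehicle.

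For 6 of the 9 members compared in both settings the sign of the difference was opposite in culture and tumours, beside 49.0% of the 11559 genes compared in both. The tumour differences of Ccnd3 (-0.05), Cdkn1a (0.04) and Cdkn1b (-0.05) lay within their implied error of 0, so their signs carry no direction. In culture the differences of Ccnd3 (0.45), Cdkn1a (-0.37), Cdkn1b (0.36) and Cdkn1c (0.36) also lay within their implied error of 0. The opposite sign of Cdkn1c therefore carries no direction either. The treated-to-untreated log2 ratio of Ccnd1 was 3.23 higher in tumours than in culture, with a 95% range of 1.80 to 4.66 from the implied errors. That of Cdk6 was 1.85 higher (0.28 to 3.42) and that of Cdk4 0.88 higher (0.02 to 1.74). These were the 3 of 9 members with both ratios whose range leaves out 0. For Cdk4 the range starts at 0.02, and each of its own ratios has a range that includes no change. The share of all genes with such a range was not computed, so the count is not set against a background. Exposure differed in length and route between the settings, and the range covers no spread between cultures or animals.

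**Figure D4:**
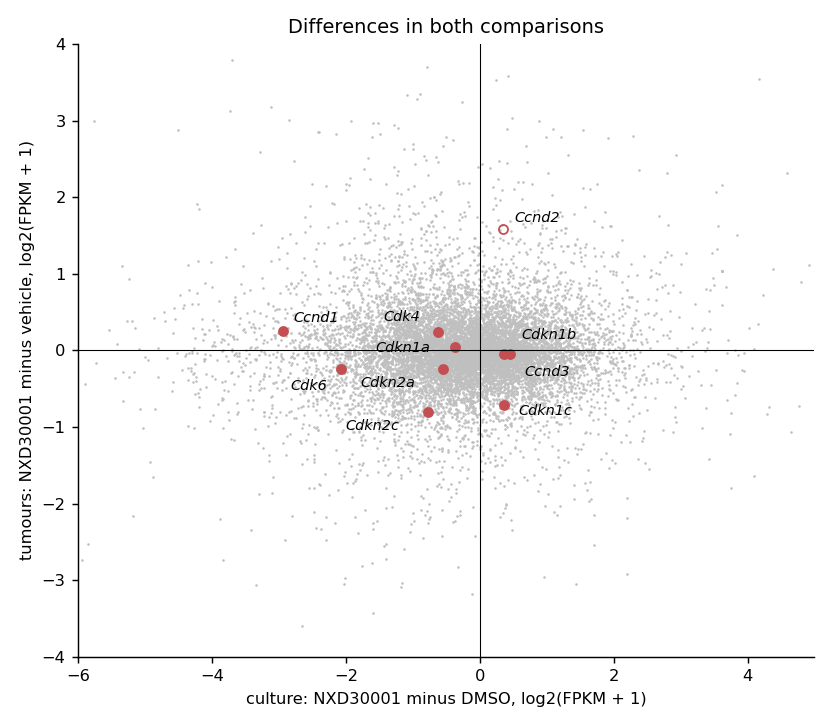
Difference in tumours (NXD30001 minus vehicle) against difference in culture (NXD30001 minus DMSO), both on the log2(FPKM + 1) scale, for 11559 genes compared in both (grey, 112 of them outside the axes) and the 10 members (red, with Ccnd2 open because it was under the minimum level in culture). Ccnd1 and Cdk6 lie to the left and Ccnd2 at the top.

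The genes with profiles nearest to the members that passed 2-fold were found among 3117 candidates. The measure was the Euclidean distance of log2(FPKM + 1) centred on the gene's mean in each setting. With 1 treated and 1 untreated library per setting, it compares only the culture and the tumour difference, and not the levels. Candidates had at least 10 FPKM in a library of each setting, a locus held by no other row, and no clone, predicted or small RNA name. For Ccnd1 they were Cks1b (distance 0.05), Syt11 (0.08) and Hdac4 (0.09). Cks1b, a cofactor of the SKP2 ligase that targets p27, was at 23.6 and 181.6 FPKM in treated and DMSO culture and at 137 and 120.1 FPKM in treated and vehicle tumours. For Cdk6 they were Zfp239 (0.01), Plod1 (0.05) and the pseudogene row Pgam1-ps2 (0.06), whose reads may belong to Pgam1. For Ccnd2 they were Kcna6 (0.03), Smad3 (0.10) and Nrcam (0.21). With only a culture and a tumour difference per gene, many genes lie close together by this measure.

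Downstream of the D cyclins, RNA of E2F target genes of G1/S was lower throughout in treated culture. Of 18 compared genes of that list all 18 were lower, beside 59.4% of all genes. Of them 15 were lower by at least 2-fold, beside 24.8% of all genes. The authors' deposited table called 8 lower, beside 7.14% of all genes. The list median was -2.09 beside -0.25 for all genes. Uhrf1, an epigenetic regulator of S phase, was at 0.309 FPKM with NXD30001 and 26.9 FPKM with DMSO. Tyms, thymidylate synthase, was at 5.76 FPKM with NXD30001 and 95.7 FPKM with DMSO. Gins2, part of the CMG helicase, was at 1.02 FPKM with NXD30001 and 45.6 FPKM with DMSO. The list held 20 compared genes in tumours, with a median of -0.27. Of them 16 were lower in the treated tumour and 4 higher, beside 52.7% of all genes lower. Only 1 gene, Chaf1b, a chromatin assembly factor, passed 2-fold (6.895 FPKM with NXD30001, 19.3 FPKM with vehicle). In tumours 6.93% of all genes were at least 2-fold lower.

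Cyclins A and B, of later phases, were also lower in treated culture. Ccna2, cyclin A2, was at 13.0 FPKM with NXD30001 and 433 FPKM with DMSO, at a locus shared with another row. Ccnb1, a cyclin of mitosis, was at 1.46 FPKM with NXD30001 and 52.9 FPKM with DMSO, and Ccnb2, its relative, at 0.881 FPKM with NXD30001 and 44.4 FPKM with DMSO. In the list of cyclins E, A and B with their kinases, 9 genes were compared, with a median of -1.89. All were lower and 7 by at least 2-fold, beside 59.4% and 24.8% of all genes. Ccne1, cyclin E1, was at 2.59 and 6.84 FPKM in treated and DMSO culture. Of 14 mitosis markers all were lower and 13 by at least 2-fold, beside the same shares of all genes, with a median of -4.07. In tumours no gene of the cyclin E, A and B list passed 2-fold (10 compared, median -0.28), with 8 lower and 2 higher. Of the mitosis markers (14 compared, median 0.11) 8 were higher and 6 lower there, and only Cenpe, a kinetochore motor, passed 2-fold. Cenpe was at 8.07 FPKM with NXD30001 and 3.06 FPKM with vehicle. Among all genes in tumours 52.7% were lower, 6.93% at least 2-fold lower and 7.32% at least 2-fold higher. The share of cycling cells and RNA per cycling cell cannot be told apart in these libraries.

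The RB pocket proteins, E2F factors and their partners varied from gene to gene in culture. Of 16 compared genes 5 were at least 2-fold lower and none 2-fold higher, beside 24.8% and 12.6% of all genes, with a median of -0.67. The lower ones included E2f8, an atypical repressive E2F (0.358 FPKM with NXD30001, 34.4 FPKM with DMSO), Rbl1, the pocket protein p107 (0.910 FPKM with NXD30001, 12.9 FPKM with DMSO), and Lin9, of the DREAM complex (0.832 FPKM with NXD30001, 12.0 FPKM with DMSO), all called in the authors' deposited table. E2f3, an activating E2F, was at 7.10 FPKM with NXD30001 and 101.8 FPKM with DMSO, with a large implied error of 1.53 and no call. The rows of E2f8, Rbl1 and E2f3 share their locus with another row. E2f7, the other atypical E2F, was at 2.81 FPKM with NXD30001 and 3.10 FPKM with DMSO. Rb1, the retinoblastoma gene itself, was within 2-fold at 13.0 and 23.6 FPKM in treated and DMSO culture. In tumours 15 genes of the list were compared and the median was 0.02, which turned to -0.08 without rows that share a locus. There E2f6, a repressive E2F, was at 21.1 FPKM with NXD30001 and 156 FPKM with vehicle and was called lower, with an implied error of 0.90. E2f3 was at 19.6 FPKM with NXD30001 and 7.24 FPKM with vehicle, and E2f2, another activating E2F, at 1.15 FPKM with NXD30001 and 3.91 FPKM with vehicle, neither of them called.

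**Figure D5:**
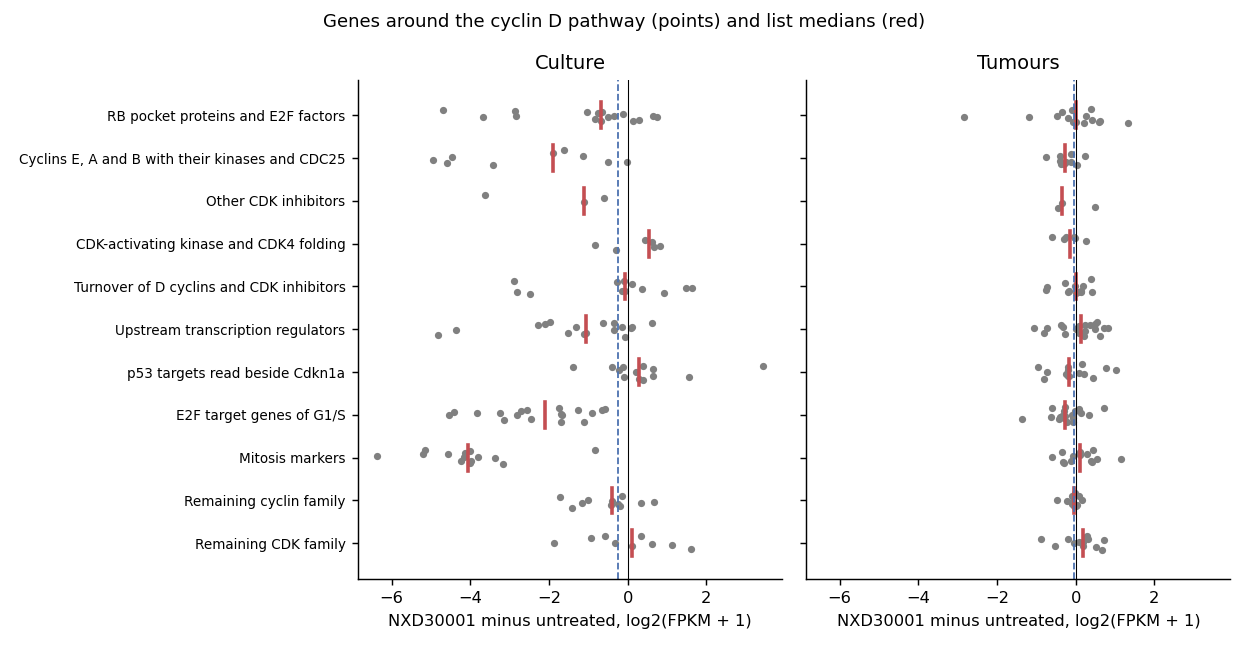
Differences (NXD30001 minus DMSO or vehicle, log2(FPKM + 1)) of the compared genes of 11 lists around the pathway, 1 point per gene, with list medians in red and the median of all compared genes as a dashed blue line. In culture the E2F target and mitosis lists lie to the left, with medians of -2.09 and -4.07, and in tumours the medians of these lists are -0.27 and 0.11.

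Other CDK inhibitors were also measured, and in culture 2 of 3, Cdkn3 and Cdkn2d, were at least 2-fold lower, beside 24.8% of all genes. Cdkn3, a phosphatase that acts on CDKs, was at 1.85 FPKM with NXD30001 and 33.8 FPKM with DMSO and was called lower in the authors' deposited table. Cdkn2d, p19 of the INK4 family, was at 2.63 and 6.86 FPKM in treated and DMSO culture, and Cdkn2b, p15 and the neighbour of Cdkn2a, at 7.95 and 12.5 FPKM. In tumours these 3 genes stayed within 2-fold, Cdkn2b at 50.4 FPKM with NXD30001 and 69.1 FPKM with vehicle.

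Genes for CDK4 folding and CDK activation did not pass 2-fold in either setting, with 6 of 6 compared, except that Hsp90aa1 did in culture relative to the median gene (1.09). Cdc37, the kinase co-chaperone, was at 23.1 FPKM with NXD30001 and 14.5 FPKM with DMSO in culture, and at 228 and 189 FPKM in treated and vehicle tumours. Hsp90ab1, the constitutive HSP90 gene, was at 3111 FPKM with NXD30001 and 2281 FPKM with DMSO and was called higher in the authors' deposited table, and Hsp90aa1, the inducible one, was at 2117 FPKM with NXD30001 and 1187 FPKM with DMSO. The list median was 0.54 in culture and -0.15 in tumours. Turnover genes of D cyclins and CDK inhibitors went both ways in culture, with 2 of 12 above the DMSO level by 2-fold or more and 3 below it, shares near those of all genes (12.6% and 24.8%). The higher were Ddb1, a CUL4 ligase adaptor (152.6 FPKM with NXD30001, 48.2 FPKM with DMSO), and Fbxo4, an F-box protein reported to act on cyclin D1 (14.3 FPKM with NXD30001, 4.43 FPKM with DMSO). The lower were Cks1b, its paralogue Cks2, at a shared locus (2.38 FPKM with NXD30001, 22.7 FPKM with DMSO), and Dtl, a CUL4 receptor that targets p21 in S phase (2.80 FPKM with NXD30001, 20.3 FPKM with DMSO). The median of this list was -0.07 and turned to 0.18 once centred on all genes and to 0.10 without rows that share a locus. In tumours none of 13 passed 2-fold, beside 6.93% of all genes at least 2-fold lower and 7.32% at least 2-fold higher.

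A list of transcription regulators known to act upstream of D cyclins, CDKs or their inhibitors was read next, and binding at the members' promoters was not measured here. Of 17 compared genes in culture 9 were at least 2-fold lower and none 2-fold higher, beside 24.8% and 12.6% of all genes, and the median was -1.05. Etv1, a factor induced by ERK signalling, was at 0.208 FPKM with NXD30001 and 32.9 FPKM with DMSO, and its relative Etv5 at 0.109 FPKM with NXD30001 and 21.9 FPKM with DMSO. Fosl1, an AP-1 subunit, was at 1.73 FPKM with NXD30001 and 12.2 FPKM with DMSO. Ezh2, a polycomb methyltransferase that silences Cdkn2a in other settings, was at 38.2 FPKM with NXD30001 and 168 FPKM with DMSO. Myc, whose binding motif recurs in the Cdk4 window above, was at 39.7 FPKM with NXD30001 and 83.1 FPKM with DMSO in culture and at 38.5 and 64.6 FPKM in treated and vehicle tumours. Ezh2 was the only gene of the 20 compared in tumours that the authors' deposited table called, at 43.4 FPKM with NXD30001 and 24.2 FPKM with vehicle. Of all genes in tumours, 3.14% were called higher and 2.45% lower. Creb1, the cyclic AMP response factor, was the only gene of the list past 2-fold in tumours, at 14.4 FPKM with NXD30001 and 30.9 FPKM with vehicle. The shares of all genes there were 6.93% at least 2-fold lower and 7.32% at least 2-fold higher.

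Genes of the p53 response were set beside Cdkn1a, a p53 target. The list had 13 compared genes in culture, of which 2 passed 2-fold upward and 1 downward, beside 12.6% and 24.8% of all genes, with a median of 0.30. Gadd45a, a stress gene, was at 72.2 FPKM with NXD30001 and 5.73 FPKM with DMSO and was called higher in the authors' deposited table, at a shared locus. Bax, a pro-death BCL2 family gene, was at 18.4 FPKM with NXD30001 and 5.59 FPKM with DMSO, and Ei24, an autophagy gene induced by p53, at 11.1 FPKM with NXD30001 and 30.6 FPKM with DMSO. Mdm2, the p53 ligase gene, was level at 49.5 and 52.5 FPKM in treated and DMSO culture, as was Cdkn1a within its error. In tumours Bbc3, the BH3-only gene PUMA, was the only gene of 14 past 2-fold, at 33.8 FPKM with NXD30001 and 16.0 FPKM with vehicle.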

How the data were processed

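RNA-seq of cultured cells and tumours was given as 2 tables, 1 per setting, each with an untreated and a treated library. FPKM values were deposited by the authors, made with TopHat 1.2.0, Cufflinks 1.0.2 and Cuffdiff on mm9, per the submitters' processing notes. The statistic and q were deposited by the authors too and were used here as a score of their own comparison, since q reached 2.05 and the sign of the statistic was reversed against the ratio in 100% of rows. The sources used here give neither strandedness nor how shared reads were counted. Genes at a shared locus are therefore uncertain (Ccnd1, Ccnd2, Cdk4 and Cdkn1b among the members). Locus starts were read as counting from 0, because end minus start equalled the gene length in 10580 of 19955 single-gene loci and the length less 1 in 268, and 1 was added.

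Left out were 705 culture and 347 tumour rows marked FAIL, and 61 culture and 449 tumour rows marked LOWDATA. FPKM gives no depth of its own. Relative depth came from genes whose implied error was that of 1 fragment in each library (42 in culture, 64 in tumours). Differences, the 1 FPKM minimum, the pseudocount of 1 FPKM and the 2-fold threshold follow the report, computed with Python 3.11.15 and pandas 2.3.3 and tested on simulated data. Repeated symbols entered lists with their highest row, and Cdk1, Cdk11b, Cdk12, Cdk14 and Cdk16 were matched by gene ID. Named genes are the 10 members, up to 4 genes with the largest difference per list and setting, the CDK4 folding genes and 3 nearest profiles per member past 2-fold. Other genes, such as Rb1, Ccne1, Mdm2, Myc and single markers, were named after their values were seen. Some Schwann cell markers are not reported here, and the tally over that list leaves them out. The members and lists were chosen with earlier results of these data known.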

Additional observations from a re-analysis of the deposited data

Results flagged for a closer look

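The sign of the difference between treated and untreated libraries was opposite in tumours and culture for 6 of the 9 members compared in both, beside 49.0% of all 11559 such genes. For Ccnd3, Cdkn1a and Cdkn1b the tumour difference was within its implied error of 0. In culture the differences of these genes and of Cdkn1c were within theirs. The contrast between the settings was not tested, since each group has 1 library. On the log2(FPKM + 1) scale the tumour difference minus the culture difference was 3.19 for Ccnd1, 0.87 for Cdk4 and 0.41 for Cdkn1a. It was -1.06 for Cdkn1c, -0.49 for Ccnd3 and -0.40 for Cdkn1b. From the implied errors, the 95% range of this contrast on the ratio scale left out 0 for Ccnd1 and Cdk4 among these genes and held 0 for Ccnd3, Cdkn1a, Cdkn1b and Cdkn1c. The share of all genes whose range leaves out 0 was not computed.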

How the results depend on the processing

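Settings tried were a lower pseudocount, no pseudocount, no minimum level, a minimum of 5 FPKM and centring on all genes. Rows that share a locus were also left out. These settings gave 104 member differences, of which 0 changed sign and all moved by less than the implied error of the gene. The minimum levels and the shared-locus setting only keep or drop rows, so under them a member's difference could not move. Only the pseudocount and the centring could change it. The median of the members ran between -0.64 and -0.30 in culture and between -0.24 and -0.02 in tumours. Without rows that share a locus, which takes Ccnd1 and Ccnd2 out by construction, 1 member was 2-fold lower in culture and 0 were 2-fold higher in tumours. By the call of the authors' deposited table, likewise, 1 was lower in culture and 0 were higher in tumours. Among 154 list medians 4 took the other sign. The median of the list of cyclins E, A and B in culture moved to -2.66 with a minimum of 5 FPKM, and that of the remaining CDKs to -0.63 in culture and 0.53 in tumours without rows that share a locus. The cause was not tested. Precision was limited by level. Between 1 and 3 FPKM the 95% range around no difference reached 3.96-fold for the median culture gene and 3.00-fold for the median tumour gene, and between 100 and 300 FPKM it reached 2.54-fold in culture, 1.49-fold in tumours. No paired analysis was possible because each group has 1 library and no replicate numbers.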

Other observations

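Cyclins and CDKs outside the main cell cycle were compared as families. Of 11 remaining cyclin genes 4 were at least 2-fold lower in treated culture and none 2-fold higher, beside 24.8% and 12.6% of all genes, with a median of -0.40 beside -0.25 for all genes. Ccnc, of the Mediator kinase module, was at 26.3 FPKM with NXD30001 and 71.6 FPKM with DMSO, and Cdk19, its paralogous kinase partner, at 10.46 FPKM with NXD30001 and 41.3 FPKM with DMSO, both at shared loci. In tumours none of the 11 passed 2-fold, with a median of -0.03.

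The remaining CDK family had 9 compared genes in culture, of which 2 passed 2-fold upward and 1 downward, beside 12.6% and 24.8% of all genes, with a median of 0.12 that turned to -0.63 without rows that share a locus. Cdk11b, a kinase linked to splicing, was at 441 FPKM with NXD30001 and 144.5 FPKM with DMSO and was called higher in the authors' deposited table, at a locus shared with another row. Cdk17, of the PCTAIRE kinases, was at 34.5 FPKM with NXD30001 and 15.2 FPKM with DMSO, also at a shared locus. In tumours none of 13 passed 2-fold, and Cdk14, a kinase partner of cyclin Y at a shared locus, was called lower at 29.1 FPKM with NXD30001 and 54.7 FPKM with vehicle. The share of all genes called lower there was 2.45%.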
